A study of Ricinus communis with 18 samples.

Results

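Hormone enzymes of castor (Ricinus communis) roots are described, 3 of the 21332 genes measured: gibberellin 20 oxidase 1 (ncbi_8258329), gibberellin 2 oxidase 1 (ncbi_8286217) and ACC synthase 1 (ncbi_8286682). They were chosen by their identifiers, from genes already known to differ between PEG-treated and untreated roots on day 3, so the 3-day difference is given without a test. The product names are those of the closest listed proteins, from Jatropha curcas for the 20 oxidase and the ACC synthase and from Camellia lipoensis for the 2 oxidase. All 3 genes passed the filter on low counts, but gibberellin 2 oxidase 1 did so through the PEG-treated roots of day 3, where it is highest.

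RNA was sequenced from whole root systems in 6 groups of 3 libraries. Roots were kept in 15% PEG-6000, a polymer that lowers the water available to roots, for 3 or 7 days, and in a further group the PEG was removed and the roots were sampled 4 days later, on day 11. Each had a control group of the same day kept without PEG. Cultivar, plant age and the number of plants per library are not stated in the labels. Replicates are not described as independent plants, and p-values therefore reflect the scatter of these samples, part or all of which may be technical. Library totals ran from 6607760 to 10817476 counts.

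Gibberellins are hormones that promote growth by elongation and division of cells. Gibberellin 20 oxidases carry out late oxidation steps that lead towards the active hormone, and gibberellin 2 oxidases hydroxylate gibberellins into inactive forms, so both enzymes set the hormone level from opposite sides. ACC synthases make 1-aminocyclopropane-1-carboxylate, the direct precursor of the gas ethylene, and this step is often the one that limits ethylene production. Both hormones are known to act on root growth and on its response to water shortage.

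Gibberellin 20 oxidase 1, the synthesis enzyme, was lowest in PEG-treated roots on day 3. Levels are given as FPKM, fragments scaled by transcript length and library total. Its level on day 3 was 6.88, 2.05 and 4.81 FPKM in the control libraries and 0.34, 0.28 and 0.33 FPKM in the PEG libraries, which rest on 5, 4 and 6 counts. No PEG library reached the lowest control. Overlap between groups is a description here and below, since its share over all genes was not counted. On day 7 the level was 7.13, 4.18 and 5.24 FPKM in controls and 0.66, 2.53 and 2.54 FPKM under PEG. The groups of day 7 did not overlap either, and all PEG libraries of day 7 stood above those of day 3, library 1 by the least. On day 11 the level was 2.73, 1.49 and 1.15 FPKM in controls and 4.62, 1.34 and 3.2 FPKM after removal of PEG. Here the groups overlapped, with library 2 of the rehydrated roots inside the control range.

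Gibberellin 2 oxidase 1, the inactivating enzyme, was low throughout and highest in PEG-treated roots on day 3. The day-3 controls held 0, 13 and 0 counts, or 0, 2.77 and 0 FPKM, and the PEG libraries 34, 45 and 16 counts, or 6.73, 9.2 and 2.59 FPKM. Control library 2 exceeded PEG library 3, so the groups overlapped. The floor that 3 counts set in the control libraries at 0 was 0.646 and 0.6 FPKM. On day 7 each control held 1 count (0.18, 0.23 and 0.19 FPKM), against 3, 3 and 8 counts under PEG (0.58, 0.55 and 1.8 FPKM). All 3 PEG libraries were above all controls, at counts near the floor. On day 11 the level was 1.06, 0.917 and 0.21 FPKM in controls and 1.74, 0.92 and 2.66 FPKM after removal of PEG, with overlap.

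ACC synthase 1, the enzyme of ethylene synthesis, was high in PEG-treated roots on day 3 and again in rehydrated roots on day 11. On day 3 its level was 0.63, 2.17 and 0.65 FPKM in controls and 24.7, 17.9 and 38.1 FPKM under PEG. Every PEG library was far above every control. On day 7 it was 1.61, 0.61 and 1.31 FPKM in controls and 2.13, 1.33 and 0.15 FPKM under PEG. These ranges overlapped throughout, and PEG library 3 held the lowest value of all 18. On day 11 it was 5.81, 11.2 and 1.58 FPKM in controls and 11.5, 22.1 and 33.7 FPKM after removal of PEG. The lowest rehydrated library lay just above the highest control, and controls 1 and 2 stood above every control of the earlier days.

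**Figure D1:**
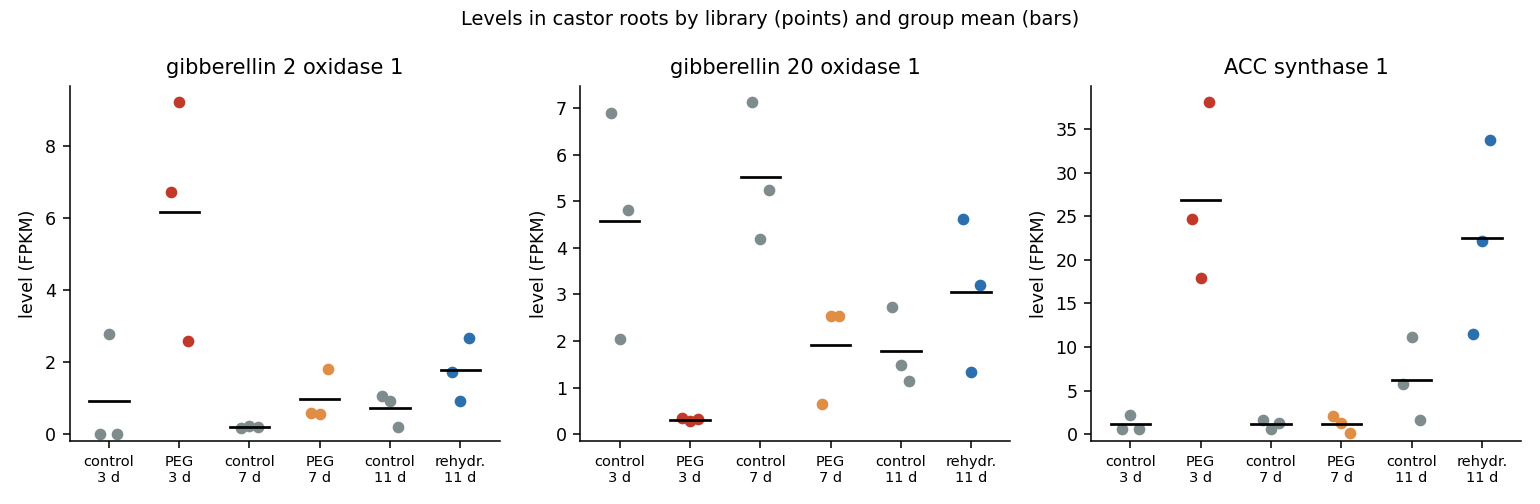
Level of each gene in FPKM (linear axis, a separate scale per gene) in every library (points) of the 6 groups, with the group mean (bar, n = 3). Gibberellin 20 oxidase 1 is at 0.34 FPKM or less in the PEG roots of day 3, and ACC synthase 1 is above 11 FPKM in all PEG libraries of day 3 and all rehydrated libraries.

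Ranked by group mean, the 3 genes followed different orders. ACC synthase 1 went from PEG at 3 days (26.9 ± 10.3 FPKM, SD, n = 3) and rehydrated roots (22.5 ± 11.1) to 11-day controls (6.19 ± 4.81), 7-day PEG roots (1.2 ± 0.996), 7-day controls (1.18 ± 0.513) and 3-day controls (1.15 ± 0.883). Of the neighbours in that order, the rehydrated roots and the 11-day controls were the pair whose libraries did not overlap. The order of gibberellin 20 oxidase 1 went from 7-day controls (5.52 ± 1.49 FPKM) through 3-day controls (4.58 ± 2.42), rehydrated roots (3.05 ± 1.64), 7-day PEG roots (1.91 ± 1.08) and 11-day controls (1.79 ± 0.829) to 3-day PEG roots (0.317 ± 0.0321). Here the last pair did not overlap. For gibberellin 2 oxidase 1 the order was 3-day PEG roots (6.17 ± 3.34 FPKM), rehydrated roots (1.77 ± 0.87), 7-day PEG roots (0.977 ± 0.713), 3-day controls (0.923 ± 1.6), 11-day controls (0.729 ± 0.455) and 7-day controls (0.2 ± 0.0265), and every pair of neighbours overlapped.

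Changes were fitted on counts scaled between libraries by TMM, a method that sets the bulk of genes equal, in 1 model over all 18 libraries. On day 3, PEG-treated roots differed from controls by a log2 change of -3.37 ± 0.58 (SE) for gibberellin 20 oxidase 1, 3.16 ± 0.96 for gibberellin 2 oxidase 1 and 4.97 ± 0.82 for ACC synthase 1. These values chose the genes and carry no test. In that comparison edgeR's quasi-likelihood test called 23.1% of the 16085 genes tested at a Benjamini-Hochberg adjusted p below 0.05. The value of gibberellin 2 oxidase 1 rests on control library 2, the control that held reads of it. Without that library the fitted log2 change was 8.26, a number set by the prior count because the remaining controls are at 0. Summed over libraries, 95 counts against 13 gave a ratio of 6.5 after scaling by library totals, with all 13 control counts from control library 2.

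On day 7, none of the 3 genes passed the test against controls of the same day, in a comparison that called 4.05% of all genes. The 20 oxidase had a log2 change of -1.30 ± 0.50 (adjusted p = 0.133, edgeR quasi-likelihood test, Benjamini-Hochberg) and was lower in 3 of 3 PEG libraries. The 2 oxidase had a log2 change of 2.36 ± 1.26 (edgeR adjusted p = 0.262), from 14 counts against 3. Their ratio after scaling by library totals was 4.69, with an exact binomial 95% interval of 1.31 to 25.5 that covers counting error only. ACC synthase 1 had a log2 change of 0.33 ± 0.79 (edgeR adjusted p = 0.827), and the sign turned to -0.45 when PEG library 1 was left out. At an unadjusted p below 0.05 the count was 1 of 3 genes, gibberellin 20 oxidase 1, and DESeq2 called 0 of 3. Over all 16085 genes tested, 3821 were below an unadjusted p of 0.05, and DESeq2 called more genes than edgeR did, as given further below.

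The PEG difference on day 7 minus that on day 3 was 2.06 ± 0.75 on the log2 scale for gibberellin 20 oxidase 1, -0.79 ± 2.04 for gibberellin 2 oxidase 1 and -4.64 ± 1.11 for ACC synthase 1. These contain the 3-day difference and carry no test. For ACC synthase 1 the level under PEG went from 26.9 FPKM on day 3 to 1.2 FPKM on day 7, while the control means were 1.15 and 1.18 FPKM. For gibberellin 2 oxidase 1 the value without control library 2 of day 3 was -5.90.

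**Figure D2:**
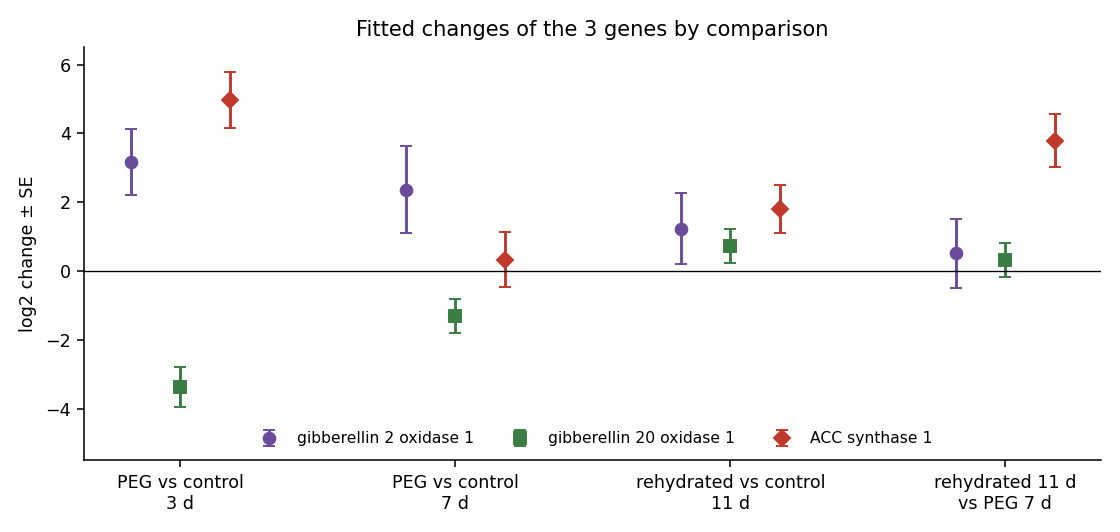
Fitted log2 change (points) with its standard error (bars) of the 3 genes in 4 comparisons, from 1 model over 18 libraries. On day 3 the 20 oxidase (-3.37) lies opposite to the 2 oxidase (3.16) and the ACC synthase (4.97), and in rehydrated against 7-day PEG roots the ACC synthase (3.79) stands apart from both oxidases.

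After removal of PEG, none of the 3 genes passed the test against 11-day controls, in a comparison that called 2 genes, or 0.0124% of those tested. ACC synthase 1 had a log2 change of 1.81 ± 0.70 (edgeR adjusted p = 0.413). Its groups did not overlap, which is a description, since the share of such genes over the whole table was not counted. The 2 oxidase had 1.23 ± 1.04 (edgeR adjusted p = 0.747) and gibberellin 20 oxidase 1 had 0.72 ± 0.50 (edgeR adjusted p = 0.698). At an unadjusted p below 0.05 the count was 1 of 3, ACC synthase 1, and DESeq2 called 0 of 3. Without rehydrated library 1 the value of the 20 oxidase was 0.32, and without rehydrated library 3 that of the 2 oxidase was 0.81. Over all genes 1564 were below an unadjusted p of 0.05 and DESeq2 called 57.

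The difference from controls on day 11 was also set against the difference on day 7, a test of the change in response between stress and recovery that called 0.671% of all genes. For gibberellin 20 oxidase 1 it was 2.03 ± 0.71 on the log2 scale (edgeR adjusted p = 0.14), from -1.30 ± 0.50 on day 7 to 0.72 ± 0.50 on day 11. Between those days the treated roots changed by 0.32 ± 0.50 and the controls by -1.71 ± 0.50, so most of this value lies in the controls. The response difference was 1.48 ± 1.05 (edgeR adjusted p = 0.439) for ACC synthase 1 and -1.14 ± 1.60 (edgeR adjusted p = 0.71) for gibberellin 2 oxidase 1. None of the 3 passed. Leaving out single libraries moved the value of ACC synthase 1 from 0.96 (without PEG library 3) to 2.33 (without control library 2 of day 11), and that of the 2 oxidase to -0.43 without PEG library 3.

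Compared directly with PEG-treated roots of day 7, rehydrated roots had more ACC synthase 1 transcript, and this change passed the test. The log2 change was 3.79 ± 0.78, a 13.8-fold difference (adjusted p = 0.0048, edgeR quasi-likelihood test, Benjamini-Hochberg), with 3 of 3 rehydrated libraries above all PEG libraries. The comparison called 25.1% of all genes, so the call itself is common here. It was made in all 14 alternative fits, with log2 changes from 3.28 to 4.58 and adjusted p from 7.67e-06 to 0.0163. Neither oxidase passed, gibberellin 20 oxidase 1 having a log2 change of 0.32 ± 0.50 (edgeR adjusted p = 0.662) and gibberellin 2 oxidase 1 one of 0.51 ± 0.99 (edgeR adjusted p = 0.729). For the 20 oxidase the sign turned, to -0.06 without PEG library 1 and -0.05 without rehydrated library 1.

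These treated groups also differ by 4 days of age, and the controls over the same days give the change with age alone. From day 7 to day 11, ACC synthase 1 in controls had a log2 change of 2.31 ± 0.76 (edgeR adjusted p = 0.564) and gibberellin 20 oxidase 1 one of -1.71 ± 0.50 (edgeR adjusted p = 0.509). In the 2 oxidase it was 1.64 ± 1.32 (edgeR adjusted p = 0.916), at 9 counts against 3. None of the 3 passed, but 2 of 3, ACC synthase 1 and the 20 oxidase, were below an unadjusted p of 0.05, and DESeq2 called 0 of 3. Without control library 2 of day 11 the value of ACC synthase 1 was 1.47. That comparison called 3 genes, 0.0187% of those tested, while 1050 were below an unadjusted p of 0.05 and DESeq2 called 58. The 20 oxidase did not overlap between the control groups and was lower in every 11-day control. The part of the ACC synthase 1 change between treated groups that goes beyond the change in controls is the response difference above. It was 1.48 ± 1.05 and did not pass, so the change of 3.79 between treated groups is not separated from age. The share of age itself was not tested.

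The log2 ratio of gibberellin 2 oxidase 1 to gibberellin 20 oxidase 1, computed from FPKM + 0.1 in each library, sets the inactivating enzyme against the synthesis enzyme. It was 2.65, 3.96 and 4.61 in the PEG libraries of day 3, the group in which the transcript of the inactivating enzyme had the higher FPKM in all libraries. It also held more counts there. In the day-3 controls the ratio was -6.13, 0.42 and -5.62. The second value belongs to control library 2, with 13 counts of the 2 oxidase and 28 of the 20 oxidase. FPKM divides by length, and the implied lengths were 571 bases (2 oxidase) and 1663 bases (20 oxidase), so the side of 0 depends on them. In the other groups the ratio was lower than in the PEG libraries of day 3. It lay between -4.69 and -3.70 in 7-day controls and between -2.02 and -0.16 in 7-day PEG roots, with no overlap. On day 11 the range was -2.02 to -0.65 in controls and -1.36 to -0.26 in rehydrated roots, which overlapped. Both genes were chosen with their 3-day difference known, so the high ratio of the 3-day PEG roots is set in part by that choice. The values of the low libraries depend on the 0.1 that was added, and no test was made on the ratio.

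**Figure D3:**
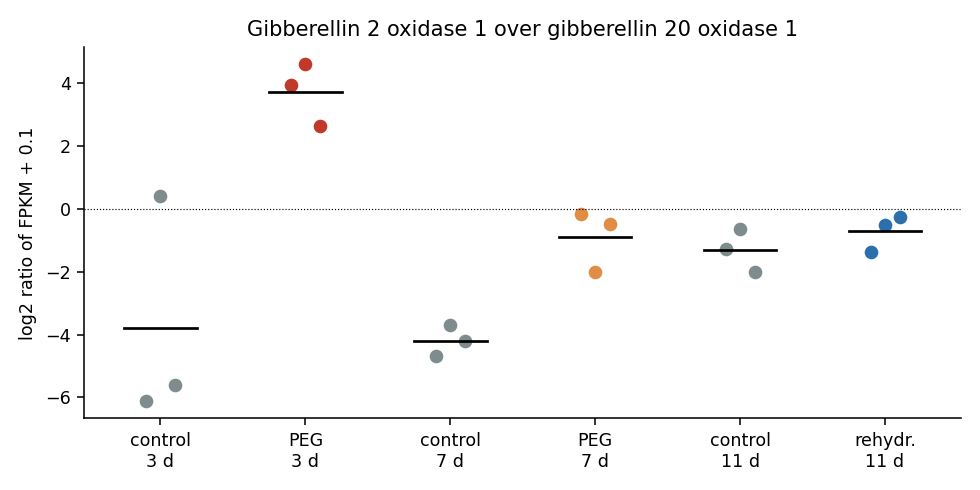
Log2 ratio of gibberellin 2 oxidase 1 to gibberellin 20 oxidase 1 (FPKM + 0.1 in both) in each library (points) with the group mean (bars, n = 3), and a dotted line at equal levels. The PEG libraries of day 3 lie between 2.65 and 4.61, and the other libraries lie below the line except for 1 control of day 3 at 0.42. Both genes were chosen with their 3-day difference known.

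The 3 genes differ in how much of their enzyme family they make up. Shares are given as the mean of the shares in the 3 libraries of a group, which is not the ratio of the group means where libraries differ. Gibberellin 2 oxidase 1 is one of 13 genes named as gibberellin 2 oxidases or 2-beta-dioxygenases and made up 1.11% of the family's summed FPKM in 3-day controls and 7.79% in 3-day PEG roots. The family sum was 79.1 ± 5.3 and 78.2 ± 3.34 FPKM in those groups, of which ncbi_8265362, a gibberellin 2-beta-dioxygenase 2, took 73.7% and 66.2%. Over all groups the family sum ran from 72.4 to 90.2 FPKM, and the share of gibberellin 2 oxidase 1 from 0.285% to 7.79%.

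Gibberellin 20 oxidase 1 took a larger part of a family that is low as a whole. The 7 genes named as gibberellin 20 oxidases summed to 17.5 ± 16.5 FPKM in 3-day controls and 1.66 ± 0.52 FPKM in 3-day PEG roots, and the mean share of gibberellin 20 oxidase 1 over libraries was 33.8% and 20.4%. A second gene, ncbi_8258480, held most of the rest in 3-day controls, with 27.7, 2.71 and 2.74 FPKM in the 3-day controls, so control library 1 sets that mean. One further gene of the family, ncbi_8287385, is named as a 20 oxidase by its product and as a 3 oxidase by its symbol, and 4 genes were not tested for want of reads. Summed levels were 15.7 and 8.24 FPKM in control and PEG roots of day 7, and 8.41 and 9.08 FPKM in control and rehydrated roots of day 11.

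ACC synthase 1 was the leading ACC synthase in 3-day PEG roots and in no other group. Of the 5 genes of this family, it made up 8.33% of the summed level in 3-day controls and 68.9% in 3-day PEG roots, where the sum was 14.5 ± 7.27 and 38.4 ± 8.7 FPKM. In rehydrated roots the sum was 66.9 ± 31.6 FPKM, of which ACC synthase 1 held 33.2% and a second ACC synthase, ncbi_8287433, 51.0%. That gene was at 21.4, 26.9 and 54.2 FPKM in rehydrated roots and at 3.72, 4.91 and 2.84 FPKM in 7-day PEG roots. It rose by 2.78 ± 0.52 on the log2 scale between them (edgeR adjusted p = 0.00312). On day 3 it was at 8.77 ± 5.01 FPKM in controls and 7 ± 3.31 FPKM under PEG, where ACC synthase 1 was at 26.9 FPKM. Near-identical family members could share reads, so levels of single copies are uncertain.

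**Figure D4:**
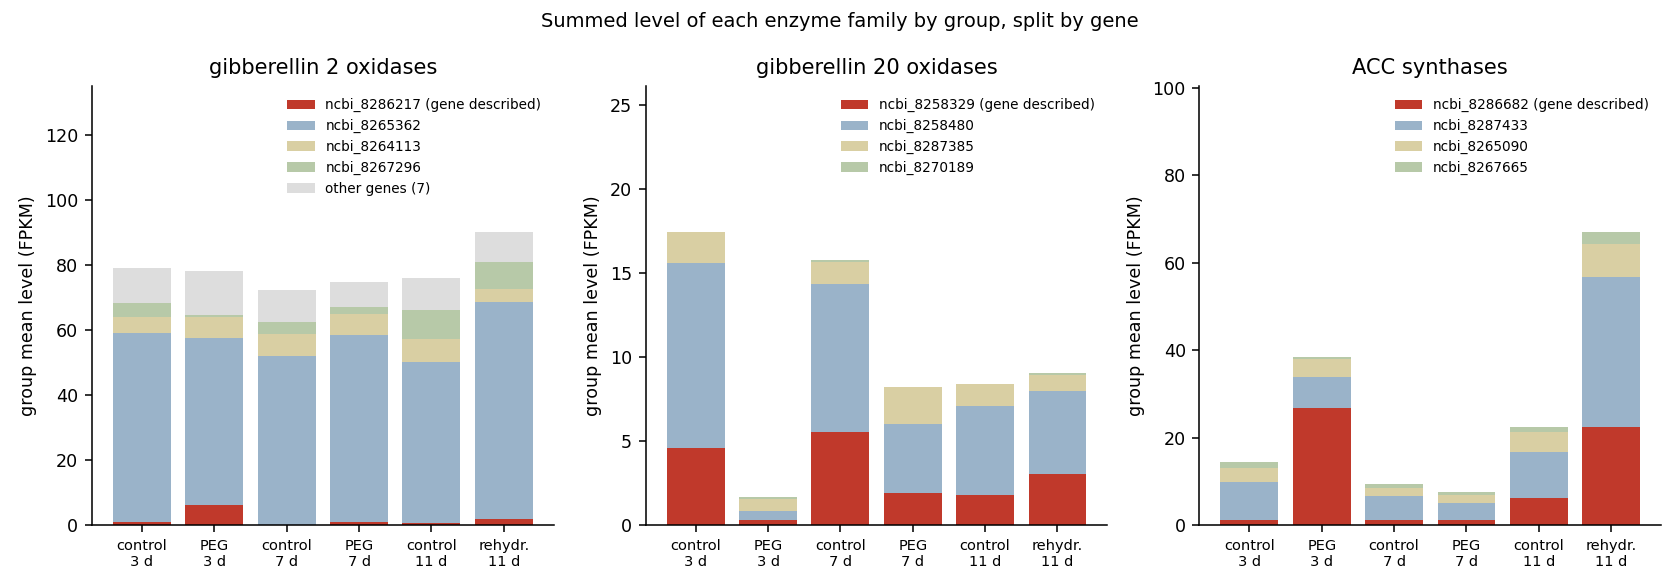
Group mean level in FPKM (stacked bars from 0, n = 3 libraries) of the genes of each enzyme family, with the gene described in red. Gibberellin 2 oxidase 1 is a thin part of a family near 79.1 FPKM, gibberellin 20 oxidase 1 shares a family of low level, and ACC synthase 1 makes up 68.9% of its family in 3-day PEG roots.

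The other genes of both hormone pathways were called in both directions, in a balance that depended on how libraries were scaled. Lists by product name (gibberellin synthesis, inactivation and response, ethylene synthesis and response) held 63 tested genes beside the 3 described. On day 3, 16 of the 63 (25.4%) were called, 6 higher and 10 lower, against 23.1% of all genes (1883 higher, 1829 lower). With libraries scaled by their totals it was 3 higher and 22 lower (39.7%), against 31.5% of all genes (912 higher, 4157 lower). On day 7 it was 2 of 63 (3.17%), both lower, against 4.05% of all genes (417 higher, 235 lower). Below an unadjusted p of 0.05 were 15 of the 63, beside 3821 of all 16085 genes. DESeq2, which keeps its own set of genes, called 6 of 66. Over all genes DESeq2 also called more than edgeR did, as given further below, so 4.05% is not its background. On day 11, rehydrated against control, the count was 0 of 63 by edgeR, against 0.0124% of all genes. Below an unadjusted p of 0.05 were 5 of the 63, beside 1564 of all 16085 genes. DESeq2 called 1 of 66, again with more calls over all genes than edgeR. Between rehydrated and 7-day PEG roots 11 of 63 were called (17.5%), 5 higher and 6 lower, against 25.1% of all genes (1734 higher, 2303 lower). By library totals it was 13 higher and 6 lower (30.2%), against 29.6% of all genes (3547 higher, 1213 lower).

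Among gibberellin synthesis genes on day 3, 1 of 6 fell and none rose, with a median log2 change of -1.26 against -0.08 for all genes. The gene that fell was the second 20 oxidase, ncbi_8258480 (-3.81 ± 1.32, edgeR adjusted p = 0.0486), and its call was lost without control library 1 or without any 1 of the PEG libraries. Among inactivating genes, 1 of 8 rose and 2 fell. The one that rose was a gibberellin 2-beta-dioxygenase 2, ncbi_8261301, from 1.86, 5.08 and 2.63 to 6.5, 17 and 9.3 FPKM (2.22 ± 0.58, edgeR adjusted p = 0.0129). Those that fell were ncbi_8267296, also a 2-beta-dioxygenase 2, at a log2 change of -2.64 (SE 0.63, edgeR adjusted p = 0.0082), and ncbi_8275353, a 2-beta-dioxygenase 8-like gene, at -2.38 (SE 0.61, edgeR adjusted p = 0.0119). Genes of the inactivating enzymes thus moved both ways on day 3. The calls of ncbi_8261301 and ncbi_8275353 were lost without PEG library 2, and that of ncbi_8261301 also without control library 1. From 7-day PEG to rehydrated roots the synthesis list had 1 call, the 20 oxidase 1-B ncbi_8287385, which fell from 1.9, 2.59 and 2.24 to 1.24, 0.79 and 0.8 FPKM (-1.54 ± 0.36, edgeR adjusted p = 0.00796). The inactivation list also had 1, a 2-beta-dioxygenase 8-like gene, ncbi_8281238, which rose from 0.123 ± 0.125 to 1.22 ± 0.62 FPKM (2.87 ± 0.95, edgeR adjusted p = 0.0375) in a call kept in 2 of 6 fits with a library left out.

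Among gibberellin response genes on day 3, 2 of 15 rose and 3 fell. F-box protein GID2 (ncbi_8288540), which in rice directs DELLA proteins to breakdown, rose from 56.3 ± 13.8 to 140 ± 45.6 FPKM (1.75 ± 0.31, edgeR adjusted p = 0.00151). The genes that fell encode DELLA proteins, the repressors of gibberellin response. They were SLR1-like (ncbi_8276206), from 28.3 ± 8.25 to 4.49 ± 0.572 FPKM, GAIP-like (ncbi_8267338), from 2.4 ± 1.13 to 0.253 ± 0.0611 FPKM, and GAI (ncbi_8258926), from 34.4 ± 4.71 to 14.6 ± 2.85 FPKM. Their log2 changes were -2.22 ± 0.47, -2.77 ± 0.56 and -0.79 ± 0.27 (edgeR adjusted p = 0.00432, 0.00352 and 0.0465), and the call of GAI was lost when any 1 of the 6 libraries was left out. A further DELLA gene, GAIP-B (ncbi_8262526), rose by 0.86 ± 0.24 (edgeR adjusted p = 0.0192), a call lost when libraries were scaled by their totals (0.43, adjusted p = 0.166). From 7-day PEG to rehydrated roots, GID2 fell from 103 to 47 FPKM (-1.53 ± 0.31, edgeR adjusted p = 0.00395) and SLR1-like from 31.1 to 12.7 FPKM (-1.64 ± 0.45, edgeR adjusted p = 0.0172), while GAIP-like rose from 0.883 to 3.45 FPKM (1.63 ± 0.5, edgeR adjusted p = 0.0267). The last 2 calls were each lost without some single libraries, PEG library 1 of day 7 among them in both. In controls from day 7 to day 11, SLR1-like changed by -1.75 ± 0.46, close to its change between the treated groups. Over those days GID2 changed by 0.05 ± 0.3 and GAIP-like by 0.25 ± 0.47, and none of these control changes was called.

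**Figure D5:**
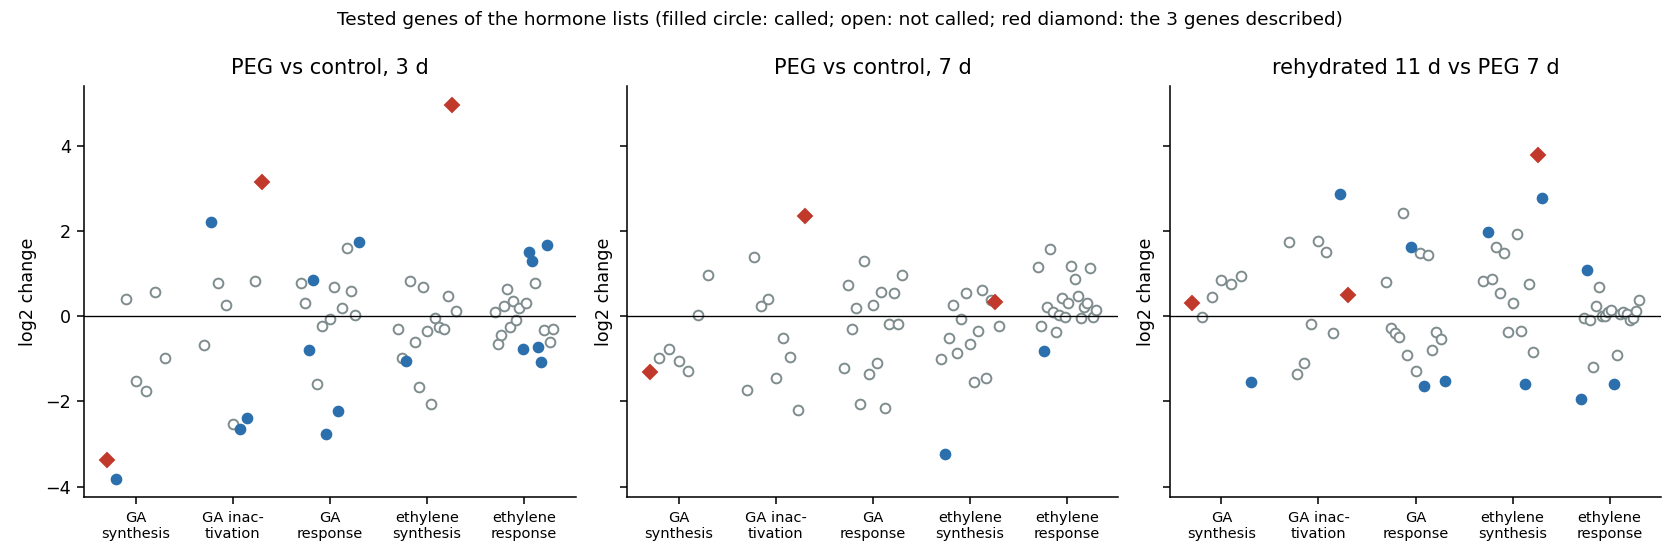
Log2 change of each tested gene of 5 hormone lists (GA, gibberellin) in 3 comparisons, filled where the gene passed the test and open where it did not, with the 3 genes described as red diamonds. On day 3 the 16 called circles lie on both sides of 0, and on day 7 the 2 called circles lie below it.

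Among ethylene synthesis genes other than ACC synthase 1, 1 of 14 fell on day 3 and none rose. It was ACC oxidase ACCO2 (ncbi_8265073), an enzyme of the final step that turns ACC into ethylene, which fell from 691 ± 126 to 246 ± 33.7 FPKM (-1.05 ± 0.32, edgeR adjusted p = 0.0282). Its call was lost without control library 1 or 2, or without PEG library 2 or 3. On day 7 an S-adenosylmethionine synthetase (ncbi_8261334), which makes the substrate of ACC synthase, fell from 132 ± 96.7 to 12.5 ± 4.22 FPKM (-3.23 ± 0.59, edgeR adjusted p = 0.0114). This call was lost without control library 2 or PEG library 1. In rehydrated roots the same gene was at 62.2 ± 12.1 FPKM, above 7-day PEG roots (1.97 ± 0.57, edgeR adjusted p = 0.0206), a call lost without PEG library 1. A further gene of this activity, ncbi_8275224, fell from 8.66 to 3.67 FPKM in that comparison (-1.6 ± 0.39, edgeR adjusted p = 0.00985), so 2 of 14 rose and 1 fell there, with a median of 0.79 against 0.04 for all genes. By library totals 7 rose and 1 fell, with a median of 1.15 against 0.42, and limma with either pseudocount gave 9 and 1. The limma median over all genes was also above 0, at 0.33 with 1 added and 0.40 with 0.1 added. The share of all genes that limma called there is not given here, so its counts have no background. In controls from day 7 to day 11, ncbi_8275224 changed by -1.26 ± 0.4. The genes that rose, ncbi_8261334 and ncbi_8287433, changed there by 0.45 ± 0.54 and 0.89 ± 0.5, and none of these control changes was called.

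Among ethylene response genes on day 3, 3 of 20 rose and 3 fell, with a median log2 change of 0.01. By library totals 1 rose and 9 fell, with a median of -0.43 against -0.52 for all genes, and limma gave 2 and 8. The limma median over all genes was -0.39 with 1 added and -0.50 with 0.1 added, and its share of all genes called is not given here. REVERSION-TO-ETHYLENE SENSITIVITY1 (ncbi_8275602), which in Arabidopsis acts with an ethylene receptor to hold back the response, rose from 6.14 ± 1.55 to 12.8 ± 3.92 FPKM (1.51 ± 0.34, edgeR adjusted p = 0.00656). EIN3-binding F-box protein 1-like (ncbi_8275898), a member of a family that removes the transcription factor EIN3, rose from 405 to 730 FPKM (1.29 ± 0.34, edgeR adjusted p = 0.0149), a call lost by library totals (0.85, adjusted p = 0.0701). ETO1-like protein 1 (ncbi_8276679), of a family that in Arabidopsis directs some ACC synthases to breakdown, fell from 38.9 to 17.3 FPKM (-0.73 ± 0.19, edgeR adjusted p = 0.0134). This call held with each library left out in turn and was lost in a fit on only the libraries compared. The remaining 3 calls were kinases named after CTR1, 1 higher (ncbi_8283691) and 2 lower (ncbi_8277895 and ncbi_8272581), all of them lost without some single libraries.

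Between 7-day PEG and rehydrated roots, where ACC synthase 1 rose, 1 of 20 ethylene response genes rose and 2 fell. Of 2 genes named as ETHYLENE-OVERPRODUCTION PROTEIN 1, the name of the ETO1 family, ncbi_8262824 rose from 5.79 ± 0.896 to 15.9 ± 1.42 FPKM (1.08 ± 0.19, edgeR adjusted p = 0.00212). The other, ncbi_8278935, was not called (-0.09 ± 0.22), at 9.81 ± 0.747 and 12 ± 1.09 FPKM. REVERSION-TO-ETHYLENE SENSITIVITY1 fell from 16.7 to 7.08 FPKM (-1.6 ± 0.34, edgeR adjusted p = 0.00543) and EIN3-binding F-box protein 1 (ncbi_8259454) from 262 to 89.8 FPKM (-1.95 ± 0.42, edgeR adjusted p = 0.00564). These 3 calls held when any 1 of the 6 libraries was left out. On day 7 ncbi_8262824 was the 1 gene of 20 that fell against controls, from 12.1 to 5.79 FPKM (-0.82 ± 0.19, edgeR adjusted p = 0.0284), a call kept in 1 of 6 fits with a library left out, while ncbi_8278935 had a log2 change of 0.32 ± 0.22.

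The genes whose levels followed each enzyme most closely were ranked by Pearson's r of log2 CPM over the 18 libraries, which share the groups and depth, so r is a description. Gibberellin 2 oxidase 1 was followed by a dioxygenase family protein, ncbi_8261826 (r = 0.94), transmembrane protein 45A-like (0.931), TIFY 5A-like (0.921), of a family of jasmonate repressors, sphingosine-1-phosphate lyase (0.912) and paladin (0.907). The dioxygenase gene was at 4.74 FPKM in 3-day controls and 29.5 in 3-day PEG roots. The genes running most against it included uracil phosphoribosyltransferase (-0.912) and nuclear transcription factor Y subunit A-10 (-0.909), which was at 16 and 1.5 FPKM in those groups. The 18 libraries include the 3-day PEG roots, in which this gene was known to differ when it was chosen. Over the 12 libraries of days 7 and 11 alone, r with the 5 genes that followed it was 0.839, 0.885, 0.727, 0.773 and 0.746, in the order given. With the 5 genes running most against it, r then ran from -0.917 (subunit A-10) to -0.607.

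Gibberellin 20 oxidase 1 was followed by the receptor-like kinase GSO1 (0.905), a senescence-associated family protein (0.903), an amino acid permease family protein (0.902), a kinase family protein, ncbi_8279988 (0.899), and nuclear transcription factor Y subunit B-3-like (0.889). Most opposed to it was endochitinase PR4-like (-0.929), at 83.7 FPKM in 3-day controls and 251 in 3-day PEG roots. Over days 7 and 11 alone, r with these genes was 0.738, 0.8, 0.747, 0.859 and 0.747, in the order given, and -0.826 with the endochitinase. ACC synthase 1 was followed by the E3 ubiquitin-protein ligase MARCH1-like (0.891), NAC domain-containing protein 2-like (0.872), an alpha/beta-hydrolase (0.858), glutamate decarboxylase 4 (0.855) and a 1-deoxy-D-xylulose-5-phosphate synthase (0.855). The NAC gene was at 6.41 FPKM in 3-day controls, 66.4 in 3-day PEG roots, 4.68 in 7-day PEG roots and 37.9 in rehydrated roots. RING-H2 finger protein ATL33 ran most against ACC synthase 1 (-0.915). Over days 7 and 11 alone, r with the genes that followed ACC synthase 1 was 0.809, 0.811, 0.716, 0.811 and 0.826, in the order given, and -0.896 with ATL33.

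Markers of other tissues and cells also differed between these groups. The summed level of 55 photosynthesis genes ran from 432 to 1050 FPKM in 3-day controls, 1050 to 1960 in 3-day PEG roots, 363 to 747 in 7-day controls, 2490 to 3130 in 7-day PEG roots, 385 to 983 in 11-day controls and 537 to 911 in rehydrated roots. On day 3, 10 of the 41 tested rose and 0 fell, where 11.7% of all genes rose and 11.4% fell. On day 7, 27 rose and 0 fell (2.59% and 1.46% of all genes), and from 7-day PEG to rehydrated roots 0 rose and 29 fell (10.8% and 14.3%). Of 46 genes of dividing cells, 11 of 45 tested rose and 0 fell on day 3, with sums of 2720 to 3240 FPKM in controls and 3840 to 4890 under PEG. That split rests on the scaling: with library totals alone 6 rose and 3 fell by edgeR, and the median log2 difference of these genes turned from 0.33 to -0.11. Of 13 phloem genes, 5 of 12 tested fell and 0 rose on day 3, with sums of 83.5 to 114 FPKM in controls and 40.8 to 48.3 under PEG. Xylem genes summed to 523 to 1790 FPKM in 3-day controls and 228 to 653 under PEG, and 4 of 18 tested fell and 0 rose. With library totals alone, 4 photosynthesis genes rose on day 3, 7 phloem genes and 8 xylem genes fell, and 0 went the other way in each list. From 7-day PEG to rehydrated roots, with TMM, 4 of 45 tested genes of dividing cells rose and 16 fell. In that comparison 5 of 12 phloem genes rose and 1 fell, and 5 of 18 xylem genes rose and 0 fell. Casparian strip membrane proteins, which mark the root endodermis, were detected in every group, with sums of 8.4 to 89.1 FPKM in 3-day controls and 1.24 to 27.6 under PEG. The part of these shifts in the levels of the 3 enzymes was not tested, and in whole root systems fewer cells of a type and less RNA per cell cannot be told apart.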

How the data were processed

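RNA was extracted with Trizol and libraries were made with an mRNA kit, per the labels. The deposited table holds counts and FPKM for each gene and library, per the file headers. The deposited counts hold some fractions and were taken to be estimated counts of reads per gene, as the authors deposited them (at least 98.3% of values whole in every library), rounded here for all tests. For the read aligner, counter and genome build the entry is "not given in the sources used here", and no coordinates are printed. FPKM as deposited by the authors gives levels. For 11-day controls, titles and descriptions point to different FPKM columns, so 3 of the 36 per-library columns were not used. Levels there were computed from counts, totals and the gene lengths the other columns imply, which returned 0.994 to 1.01 times the deposited FPKM elsewhere (5% and 95% quantiles).

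Genes were filtered with filterByExpr (16085 of 21332 kept), scaled by TMM and fitted with 1 mean per group over 18 libraries by edgeR's robust quasi-likelihood test (R 4.3.3, edgeR 4.0.16), with Benjamini-Hochberg adjustment over all genes in each comparison and a threshold of 0.05. The pipeline was tested on simulated data. FPKM divides by library totals, and TMM factors were 0.765 to 0.806 in 3-day PEG roots and 0.968 to 1.267 in controls, so folds of FPKM means and fitted changes differ. DESeq2 1.42.0 and limma 3.58.1 on log2(FPKM + 1) and log2(FPKM + 0.1), computed from the deposited FPKM, were alternatives, with other scalings, no filter, a replicate block and each library left out. No 2 libraries of a group agreed within sampling noise.

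The members and lists were chosen with earlier results of these data known. The text names the 3 genes, list genes called in a comparison (up to 6 per list, by smallest adjusted p), their families, and the 5 genes most and least like each in log2 CPM (prior count 2).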

Additional observations from a re-analysis of the deposited data

How the results depend on the processing

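The call of ACC synthase 1 between rehydrated and 7-day PEG roots was made under all 14 alternatives, and no gene of the 3 passed the test in another tested comparison under any alternative run. Without a test, log2(FPKM + 1) in limma moved the 3-day changes to 2.08 (gibberellin 2 oxidase 1), -1.98 (gibberellin 20 oxidase 1) and 3.71 (ACC synthase 1), and the day 7 minus day 3 value of the 20 oxidase to 0.76. Log2(FPKM + 0.1) gave 4.18 for the 2 oxidase on day 3. The 7-day change of ACC synthase 1 reversed to -0.07 and -0.37 with these pseudocounts, and the 11-day minus 7-day value of the 2 oxidase turned to 0.007 with the first. The mean log2 ratio of the oxidases with 1 added was 2.32 in 3-day PEG roots and -2.42 in 7-day controls. Leaving out single libraries, the 3-day changes ran from 2.58 to 8.26 (2 oxidase) and 4.66 to 5.80 (ACC synthase 1, highest without control 2), the 7-day change of ACC synthase 1 from -0.46 to 0.84, the rehydrated against 7-day PEG change of the 20 oxidase from -0.064 (without PEG library 1; -0.048 without rehydrated library 1) to 0.68, and the day 7 minus day 3 value of the 2 oxidase from -5.90 to -0.22. Of results that passed no test, the 11-day change ran from 0.32 to 1.04 (20 oxidase) and 0.81 to 1.495 (2 oxidase), the 11-day minus 7-day value from 0.96 to 2.33 (ACC synthase 1), and the change of ACC synthase 1 between controls from 1.47 to 2.76.

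Counts of genes called over the whole table moved more. DESeq2 gave 1634 on day 7, 57 on day 11, 940 for the 11-day minus 7-day difference, 245 for day 7 minus day 3 and 58 between controls. Fits on only the libraries compared gave 1285, 170, 0, 436, 19 and 0 for day 3, day 7, day 11, 11-day minus 7-day, day 7 minus day 3 and controls. On day 11, library totals gave 1, no filter 0 and limma 4 with either pseudocount. The 11-day minus 7-day count was 20 by library totals and 50 and 23 by limma with 1 and 0.1 added, and controls gave 7 and 9. Leaving out single libraries gave 1900 (without control 1) to 3959 on day 3, 47 (without control 2) to 824 on day 7, 0 to 3 on day 11, 3 to 433 for 11-day minus 7-day, 1567 (without PEG library 1) to 3589 for rehydrated against 7-day PEG roots, 0 to 2 between controls and 14 to 46 for day 7 minus day 3. With totals as the scaling, the median over genes went from -0.08 to -0.52 on day 3, from -0.06 to -0.31 on day 7 and from 0.04 to 0.42 for rehydrated against 7-day PEG roots. The causes were not tested. Of 29 calls of list genes, 13 held with every library left out in turn, 3 were lost by library totals and none changed sign. Fits on only the libraries compared also lost calls. Among these were both calls of day 7 and every ethylene response call of day 3 except that of REVERSION-TO-ETHYLENE SENSITIVITY1.

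Same-numbered libraries deviated together with correlations of 0.625, 0.501 and 0.08 on day 3, 0.047, 0.503 and -0.227 on day 7, and 0.164, -0.154 and -0.156 on day 11, so the numbers were not taken to pair samples. With a replicate block, 3400 genes were called on day 3, 541 on day 7 and 2 on day 11, the day 7 minus day 3 count was 21, and ACC synthase 1 in rehydrated against 7-day PEG roots changed by 3.85 on the log2 scale. Gibberellin 2 oxidase 1, with 0 to 13 counts outside 3-day PEG roots, is limited most by depth, and outside day 3 it did not pass the count filter among only the libraries compared, so it has no value there.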
